A study of Saccharomyces cerevisiae with 9 samples.

Results

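The genes described here build and police the cell wall of Saccharomyces cerevisiae: structural wall proteins, the enzymes that make and remodel glucan and chitin, surface proteases, and the kinase and transcription factor at the end of the cell wall integrity pathway. They were chosen by name as a list of 32 genes, and a gene's values were those of the array probe whose systematic name is its open reading frame. Of the 32 genes, 31 had such a probe, 1 each, among 6199 genes on the array. HSP150, a Pir protein, was not analysed here, because no probe carried its open reading frame as systematic name. All 31 genes were well above background on all 9 arrays and all 31 passed the filter on dim probes, so they stand among 5820 genes tested.

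The study measured total RNA of BY4743, a diploid laboratory strain that lacks HIS3, LEU2 and URA3 in every group, on 1-colour Agilent arrays. There were 3 groups of 3 arrays: a vehicle control with no dose or time given in the labels, cells given HenGC, and cells given SoyGC, each GC at 40 ug/ml for 17 h. HenGC comes from hen of the woods, a mushroom, and SoyGC from soybean. The labels do not spell out GC, and the title of the series speaks of a sphingolipid. Arrays carry the numbers 1 to 3 within a group, and nothing in the labels says whether each came from a culture of its own. The p-values therefore reflect the spread among these 9 samples alone, and that spread may be technical.

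The yeast wall is a mesh of glucan and a little chitin that carries a coat of mannoproteins. Glucan and chitin synthases in the plasma membrane spin the chains, transglycosylases such as Gas1 and Crh1 join them, and mannoproteins are attached either through a remnant of a glycosylphosphatidylinositol (GPI) anchor or, for Pir proteins, directly to glucan. When the wall is strained, sensors of the Wsc and Mid2 type act through Rho1 and Pkc1 on a kinase cascade that ends in Slt2, and Slt2 activates Rlm1, a transcription factor with many wall genes among its targets.

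A gene's level is given on the log2 scale, as the log2 processed signal of its probe minus the array's 75th percentile, so that 0 is the signal of that percentile. Levels compare arrays for 1 gene and not 1 gene with another. Between 92.4% and 95.8% of spots were well above background on an array, no spot was saturated, and correlations between arrays of a group were 0.977 to 0.998 for vehicle, 0.994 to 0.995 for HenGC and 0.991 to 0.995 for SoyGC. HIS3, LEU2 and URA3 were well above background on 0 of 9 arrays. Of 20 haploid-specific genes on the array, which diploid cells keep low, 16 were well above background on all 9 arrays and the rest on 4 to 7 of them. Vehicle 3 stood apart from the other vehicle arrays: 503 of 5820 genes were over 2-fold lower on it than on their mean and 12 over 2-fold higher. On vehicle 3, 24 of 31 wall genes and 3092 of 5820 genes tested were higher than on the mean of vehicle 1 and 2. The median was 0.136 over the wall genes against 0.031 over all genes, and RLM1 alone of the wall genes was over 2-fold lower. Vehicle 1, vehicle 2, SoyGC 1 and SoyGC 2 shared slide 1, HenGC 1 and HenGC 2 were on slide 2, and the arrays numbered 3 were together on slide 3, which was scanned on a second day.

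Under SoyGC, 6 of the 31 wall genes fell and none rose, by limma fitted across all genes, at a threshold of 0.05 on the p-value after Benjamini-Hochberg adjustment. PST1, YPS1, PIR3, GSC2, CHS1 and FKS1 were lower than vehicle by 1.96-fold, 1.69-fold, 1.53-fold, 1.42-fold, 1.37-fold and 1.28-fold. They are a GPI wall protein, a surface protease, a Pir protein, both glucan synthase catalytic subunits and a chitin synthase. Those 6 genes are 19.4% of the list, where 5.93% of all genes tested fell, 3.32% rose and 9.24% changed in either direction. Leaving out 1 array changed the count. With vehicle 1, vehicle 3 or any 1 HenGC array left out, 3 genes passed, with SoyGC 1 left out 2, with SoyGC 2 left out 1, and with vehicle 2 or SoyGC 3 left out 0.

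The wall genes as a list had a lower median on each of the 6 treated arrays than on any vehicle array. For SoyGC, 29 of 31 differences were negative, against 2886 of 5820 over all genes, and the list's median was -0.226 against 0.004. On all 3 SoyGC arrays 15 genes were lower than on any vehicle array, which is 48.4% of the list against 20.5% of all genes. No wall gene was higher on all 3 SoyGC arrays than on any vehicle array, against 13.6% of all genes. For HenGC, 30 of 31 differences were negative, against 2908 of 5820 over all genes, and the list's median was -0.275 against 0.000. On every HenGC array 19 genes (61.3% against 17.8%) were lower than on any vehicle array, while 0 were higher on every one (12.2% of all genes). Both comparisons use the same 3 vehicle arrays, so their directions are not independent. Without vehicle 3 the medians were -0.218 for SoyGC and -0.216 for HenGC. In these bulk cultures, fewer cells expressing a gene and less of its RNA per cell cannot be told apart.

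**Figure D1:**
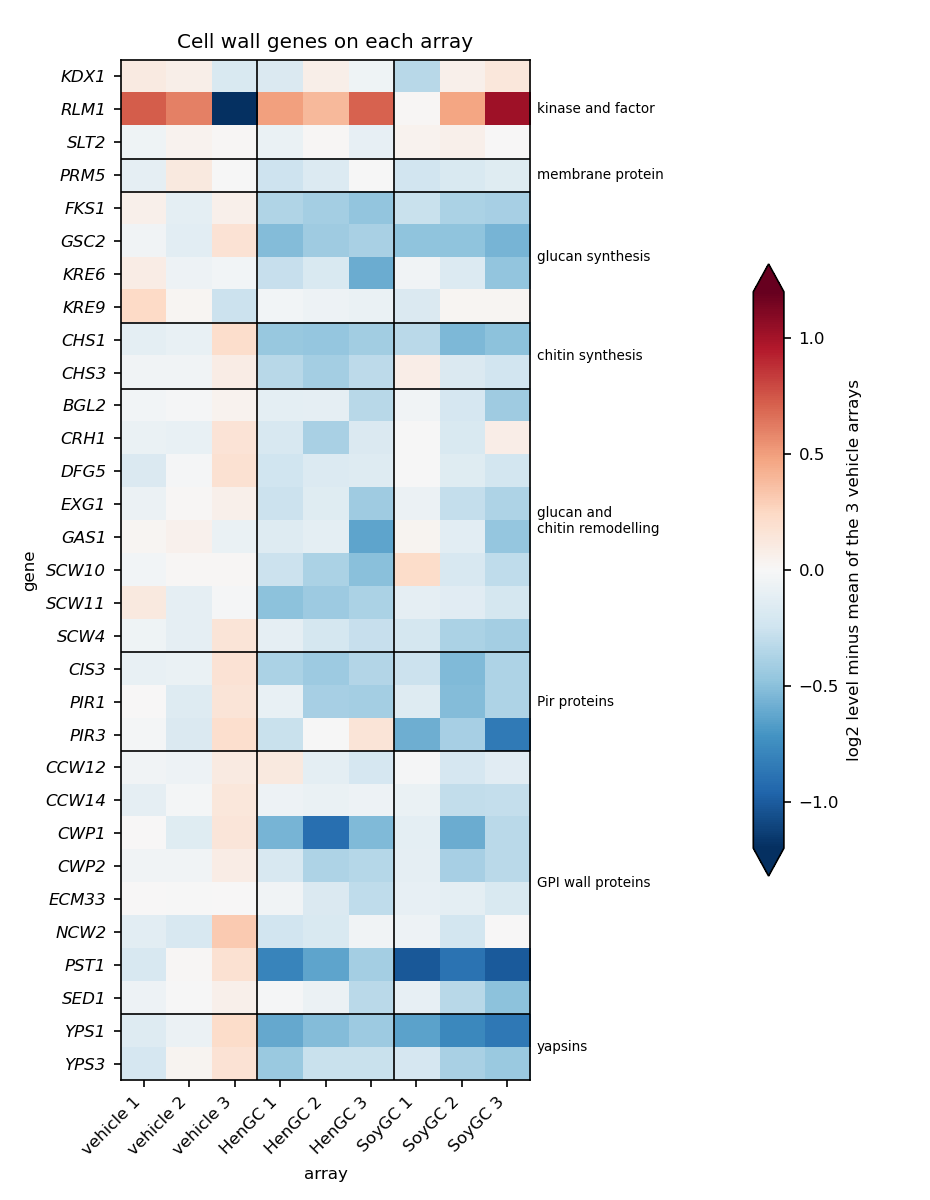
Each row is a wall gene, grouped by role, and each column an array. The colour is the log2 level minus the mean of the 3 vehicle arrays, and values past the ends of the scale take its end colour. Blue fills most of the HenGC and SoyGC columns, PST1 and YPS1 are the darkest blue rows under SoyGC, and the dark blue cell of RLM1 is vehicle 3. That array lowers the vehicle mean of RLM1, so most other cells of its row are red.

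Under HenGC, 0 of 31 wall genes passed the same limma threshold, where 1.19% of all genes did, 53 higher (0.911%) and 16 lower (0.275%). At an unadjusted p under 0.05, 14 wall genes were lower and 0 higher, which is 45.2% of the list against 12.9% of all genes lower and 8.49% higher. At that level 12 were lower and 0 higher under SoyGC, 38.7% of the list lower against 16.7% of all genes lower and 10.9% higher. The 8 wall genes with the largest moderated statistics under HenGC had adjusted p-values between 0.0597, for SCW11, and 0.117, for CIS3. The adjustment draws on all genes tested, of which 538 passed for SoyGC and 69 for HenGC. A gene with similar differences under both treatments can therefore pass for SoyGC alone. The words fell and lowered mark a difference past the threshold, and do not mean that the other treatment left the gene unchanged.

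SLT2 and KDX1, the kinase genes of the list, were close to their vehicle levels under both treatments. SLT2, the mitogen-activated protein kinase of the pathway, was at 1.41, 1.5 and 1.47 on the vehicle arrays, 1.38, 1.47 and 1.36 under HenGC, and 1.5, 1.52 and 1.46 under SoyGC, and the groups overlapped. Its difference from vehicle was 0.03 ± 0.08 (SE) for SoyGC, with a 95% interval of -0.15 to 0.21, and -0.06 ± 0.08 for HenGC. KDX1, a paralog of SLT2 and itself a target of the pathway, and PRM5, a membrane protein gene known as an Rlm1 target, did not pass the threshold in either comparison. KDX1 differed from vehicle by -0.04 ± 0.14 under SoyGC and -0.05 ± 0.14 under HenGC, and PRM5 by -0.19 ± 0.10 and -0.14 ± 0.10.

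RLM1, the transcription factor, is described because of 1 array, a choice made after its values were seen. Its vehicle levels were -2.24, -2.37 and -4.30, its HenGC levels -2.48, -2.58 and -2.26, and its SoyGC levels -2.96, -2.50 and -1.95. Vehicle 3 lay below all 8 other arrays, which overlapped among themselves. The differences of 0.53 ± 0.50 for HenGC and 0.50 ± 0.50 for SoyGC (limma adjusted p = 0.518 and 0.544) turned to -0.14 and -0.17 without vehicle 3 (adjusted p = 0.85 and 0.749). Over all tested alternatives the adjusted p ran from 0.285 to 0.85 for HenGC and from 0.192 to 0.87 for SoyGC.

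Both catalytic subunits of the glucan synthase that makes the main wall polymer were lower under both treatments, and passed the threshold under SoyGC alone. GSC2, the subunit known from starved, sporulating and wall-stressed cells, was at 3.40, 3.32 and 3.62 on the vehicle arrays, 2.93, 3.02 and 3.06 under HenGC, and 2.96, 2.96 and 2.89 under SoyGC. Every treated array lay below every vehicle array. SoyGC lowered it by 0.51 ± 0.10 (SE, 3 against 3 arrays; limma adjusted p = 0.0291), and HenGC differed from vehicle by -0.45 ± 0.10 (adjusted p = 0.0692). FKS1, the subunit of growing cells, was at 2.29, 2.11 and 2.29 in vehicle, 1.87, 1.82 and 1.76 under HenGC, and 1.96, 1.85 and 1.83 under SoyGC. Its groups did not overlap with vehicle either. The FKS1 differences were -0.35 ± 0.09 for SoyGC (adjusted p = 0.0465) and -0.41 ± 0.09 for HenGC (0.0659). The moderated statistic of FKS1 was -3.88 for SoyGC and -4.58 for HenGC, so its call under SoyGC alone does not show a stronger fall there. FKS1 and GSC2 are close paralogs, and whether their probes share signal was not tested.

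The glucan synthase calls differed in how far they rested on single arrays. For GSC2 under SoyGC the adjusted p passed the threshold without vehicle 3 (difference -0.42, adjusted p = 0.0475), and missed it without vehicle 2 (0.0768), SoyGC 1 (0.0672), SoyGC 2 (0.0699) or SoyGC 3 (0.0996). For FKS1 it missed the threshold when any 1 of the 9 arrays was left out (0.0656 to 0.145). On the first scan day the SoyGC differences were -0.40 for GSC2 and -0.29 for FKS1, from 2 arrays against 2, and on the second day -0.73 and -0.46, from 1 array against 1. KRE6 and KRE9, which act in making the side-branch glucan to which mannoproteins are tied, did not pass: KRE6 differed by -0.36 ± 0.14 under HenGC and -0.23 ± 0.14 under SoyGC, and KRE9 by -0.06 ± 0.13 and -0.04 ± 0.13.

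Of the chitin synthases, CHS1 passed the threshold under SoyGC alone, and CHS3 in neither comparison with vehicle. The moderated statistic of CHS1 was -4.11 for SoyGC and -4.02 for HenGC. CHS1, which repairs the wall as daughter cells separate, was at 0.09, 0.11 and 0.41 in vehicle, -0.25, -0.26 and -0.21 under HenGC, and -0.12, -0.34 and -0.29 under SoyGC, with all treated arrays below all vehicle arrays. Its differences were -0.45 ± 0.11 for SoyGC (limma adjusted p = 0.0419) and -0.44 ± 0.11 for HenGC (0.0922). The SoyGC call for CHS1 was lost when any 1 of the 9 arrays was left out (0.0508 to 0.133), and the difference was -0.35 without vehicle 3. CHS3, which makes most of the chitin of the wall, was at 0.25, 0.25 and 0.38 in vehicle, -0.04, -0.11 and -0.02 under HenGC, and 0.37, 0.12 and 0.06 under SoyGC. The HenGC arrays lay below all others, and the SoyGC arrays overlapped with vehicle. CHS3 differed from vehicle by -0.35 ± 0.10 under HenGC (adjusted p = 0.127) and by -0.11 ± 0.10 under SoyGC (0.514).

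PST1 showed the largest fall of the list under SoyGC. It encodes a GPI wall protein related to Ecm33 and is a widely used marker of the integrity pathway, which raises it when the wall is damaged. Its level was 2.24, 2.44 and 2.61 on the vehicle arrays (2.43 ± 0.18, SD, n = 3), 1.64, 1.80 and 2.02 under HenGC (1.82 ± 0.19), and 1.41, 1.54 and 1.42 under SoyGC (1.46 ± 0.072). The groups lay in the order vehicle, HenGC, SoyGC with no overlap between any pair of them. SoyGC lowered PST1 by 0.97 ± 0.13 (limma adjusted p = 0.0123), and HenGC differed from vehicle by -0.62 ± 0.13 (adjusted p = 0.0640). The SoyGC difference was -0.86 on the first scan day, -1.19 on the second, and -0.88 without vehicle 3 (adjusted p = 0.0202). It lost the threshold without vehicle 2 (0.0601) and without SoyGC 3 (0.0676), with the difference at -0.97 and -0.95.

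CWP1, a GPI mannoprotein, was the wall gene with the largest HenGC difference. Its levels were 2.37, 2.22 and 2.51 in vehicle, 1.81, 1.46 and 1.84 under HenGC, and 2.25, 1.77 and 2.04 under SoyGC. HenGC arrays lay below all vehicle arrays, while SoyGC 1 was above vehicle 2. CWP1 differed from vehicle by -0.66 ± 0.16 under HenGC, 1.58-fold lower (limma adjusted p = 0.0765), and by -0.35 ± 0.16 under SoyGC (0.183). The other 6 GPI wall proteins (CWP2, SED1, CCW12, CCW14, ECM33 and NCW2) did not pass in either comparison. CWP2, at -0.30 ± 0.11 and -0.28 ± 0.11, did not overlap with vehicle under either treatment. SED1, a wall protein known from stressed and stationary cells, differed by -0.31 ± 0.13 under SoyGC and -0.14 ± 0.13 under HenGC. CCW12, a main mannoprotein of the coat, differed by -0.12 ± 0.11 and -0.07 ± 0.11.

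The yapsins are GPI-anchored aspartyl proteases that act on wall and surface proteins. YPS1 was at 0.01, 0.10 and 0.39 in vehicle (0.17 ± 0.20, SD, n = 3), -0.45, -0.35 and -0.27 under HenGC (-0.36 ± 0.088), and -0.48, -0.61 and -0.69 under SoyGC (-0.59 ± 0.11). As with PST1, the 3 groups did not overlap and SoyGC was the lowest. SoyGC lowered YPS1 by 0.76 ± 0.12 (limma adjusted p = 0.0197), and HenGC differed from vehicle by -0.52 ± 0.12 (0.0724). The SoyGC difference was -0.59 on the first scan day, -1.09 on the second and -0.64 without vehicle 3 (adjusted p = 0.0256), and it missed the threshold without vehicle 2 (0.074), SoyGC 2 (0.0582) or SoyGC 3 (0.0877). YPS3, whose gene lies beside YPS1, differed by -0.35 ± 0.12 under SoyGC (adjusted p = 0.102) and -0.33 ± 0.12 under HenGC (0.184).

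**Figure D2:**
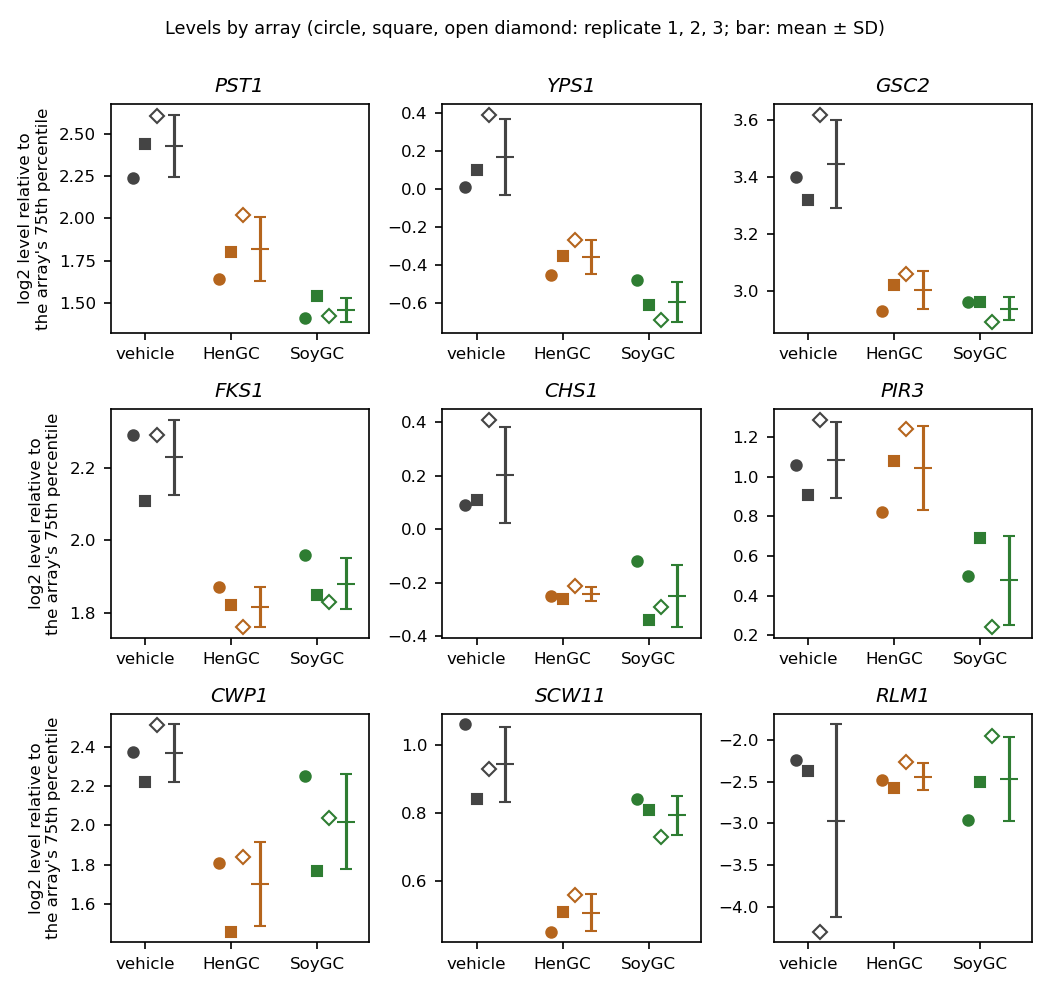
Levels of 9 wall genes by group, as log2 processed signal minus the array's 75th percentile, with a separate vertical axis for each gene. Circles, squares and open diamonds are replicates 1, 2 and 3, and bars show the mean ± SD of 3 arrays. PST1 and YPS1 step down from vehicle to HenGC to SoyGC, PIR3 is low only on the SoyGC arrays, SCW11 is lowest on the HenGC arrays, and RLM1 has 1 vehicle array far below the rest.

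The Pir proteins, which are bound to glucan through glutamine residues in their repeats, did not share 1 pattern. PIR3 was at 1.06, 0.91 and 1.29 in vehicle, 0.82, 1.08 and 1.24 under HenGC, and 0.50, 0.69 and 0.24 under SoyGC. The 3 SoyGC arrays lay below the 6 others, and HenGC and vehicle overlapped. SoyGC lowered PIR3 by 0.61 ± 0.16 (limma adjusted p = 0.0470), while HenGC differed from vehicle by -0.04 ± 0.16 (0.884), with a 95% interval of -0.40 to 0.32. The SoyGC difference of PIR3 was -0.39 on the first scan day, -1.05 on the second and -0.51 without vehicle 3 (adjusted p = 0.103), and the call was lost when any 1 of the 9 arrays was left out (0.0564 to 0.152).

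CIS3 was at 4.86, 4.87 and 5.12 in vehicle, 4.57, 4.51 and 4.60 under HenGC, and 4.69, 4.42 and 4.58 under SoyGC. Every treated array lay below every vehicle array, by -0.39 ± 0.11 on average under either treatment, and neither difference passed (limma adjusted p = 0.117 for HenGC and 0.0582 for SoyGC). The SoyGC difference of CIS3 did pass with scan day as a fixed block (0.0447) or slide as a random block (0.0483), and not with slide as a fixed block (0.0812), over a range of 0.00837 to 0.384 for all tested alternatives. PIR1 differed by -0.29 ± 0.14 under HenGC and -0.35 ± 0.14 under SoyGC (adjusted p = 0.252 and 0.142). PIR1, PIR3 and CIS3 are related in sequence, and shared probe signal was not tested.

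None of the 8 glucan and chitin remodelling enzymes passed the limma threshold against vehicle, and all 8 differences were negative for each treatment, with a median of -0.263 for HenGC and -0.172 for SoyGC. At an unadjusted p under 0.05 3 of them (37.5%) were lower under HenGC, against 12.9% of all genes, and 1 (12.5%) under SoyGC, against 16.7%. SCW11, a glucanase-like wall protein made in daughter cells, was at 1.06, 0.84 and 0.93 in vehicle, 0.45, 0.51 and 0.56 under HenGC, and 0.84, 0.81 and 0.73 under SoyGC. Its HenGC arrays lay below all others, and the highest SoyGC array was below the lowest vehicle array by less than the second decimal. SCW11 differed from vehicle by -0.44 ± 0.09 under HenGC (adjusted p = 0.0597) and by -0.16 ± 0.09 under SoyGC (0.309).

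SCW4, a wall glucanase of the same family, was at 4.62, 4.57 and 4.83 in vehicle, 4.57, 4.46 and 4.40 under HenGC, and 4.46, 4.29 and 4.27 under SoyGC, with differences of -0.20 ± 0.11 and -0.33 ± 0.11 (limma adjusted p = 0.301 and 0.0808). SCW10, its closest relative, was at 2.03, 2.08 and 2.08, then 1.81, 1.68 and 1.56, then 2.28, 1.87 and 1.76 in the same order of groups. SoyGC 1 was above every vehicle array for SCW10 and the other SoyGC arrays below, so its groups overlapped, and the differences were -0.38 ± 0.14 for HenGC and -0.10 ± 0.14 for SoyGC (adjusted p = 0.175 and 0.674). CRH1, which links chitin to glucan, was at 1.93, 1.92 and 2.17 in vehicle, 1.81, 1.62 and 1.83 under HenGC, and 2.00, 1.82 and 2.09 under SoyGC. HenGC lay below vehicle and SoyGC overlapped with it, at -0.25 ± 0.12 and -0.04 ± 0.12 (adjusted p = 0.246 and 0.856). The remaining 4 are GAS1, which elongates glucan, BGL2 and EXG1, which cut or transfer it, and DFG5, which acts in attaching GPI proteins to the wall. Their differences from vehicle lay between -0.31 and -0.12.

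**Figure D3:**
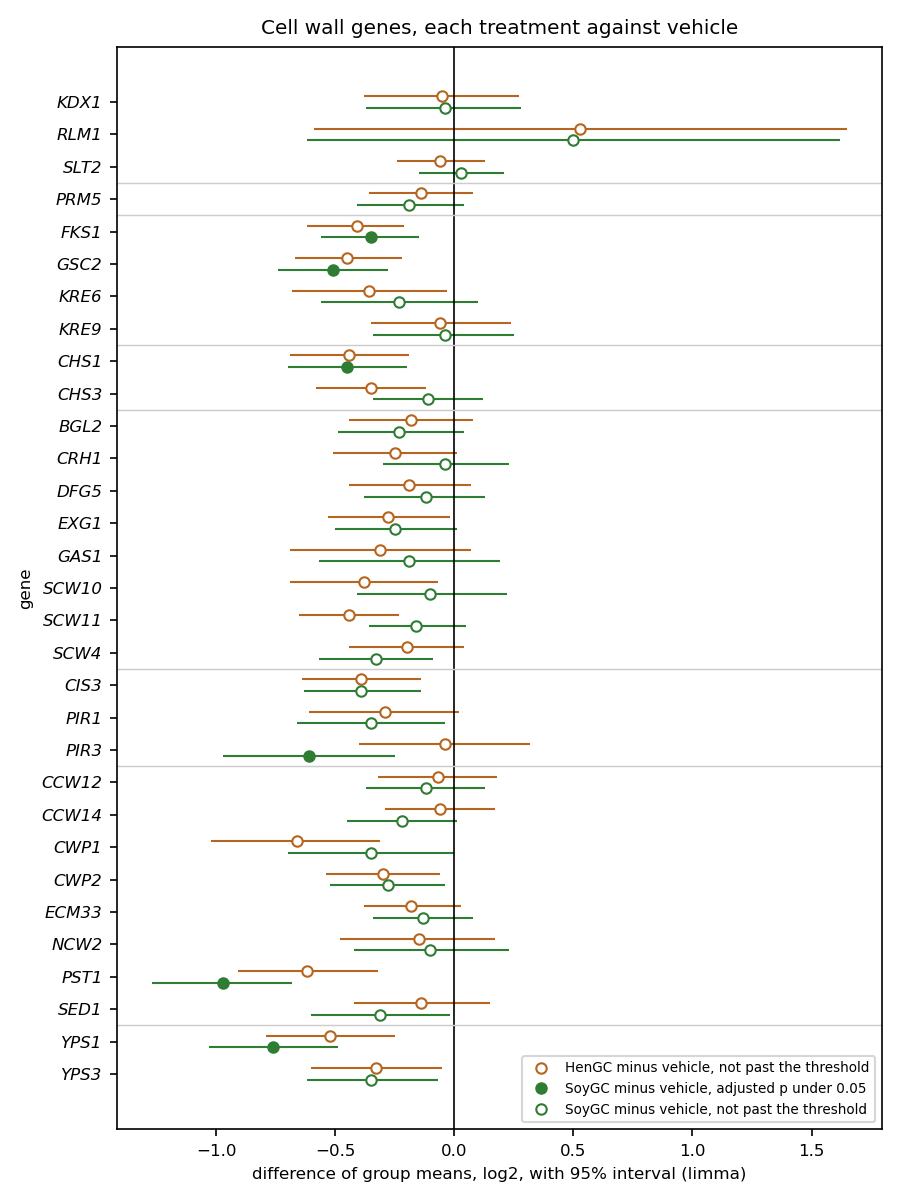
Difference of group means from vehicle for each of the 31 wall genes, on the log2 scale, with its 95% interval from limma (3 against 3 arrays). Orange is HenGC and green SoyGC. Filled points, the 6 SoyGC calls, passed the adjusted threshold, and all points but those of RLM1 and the SoyGC point of SLT2 lie left of 0.

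HenGC and SoyGC were given at the same dose for the same time, and all 31 wall genes were compared between them in the same limma fit. None passed the threshold, and 0 of 5820 genes did (0% called). At an unadjusted p under 0.05, 2 wall genes were higher under HenGC, PIR3 and PST1, and 2 lower, SCW11 and CHS3, where 7.1% of all genes were higher and 5.55% lower. Of the 31 differences 14 were positive and 17 negative, with a median of -0.007 against 0.014 over all genes. The groups did not overlap for PIR3, PST1 and YPS1 (higher under HenGC, 9.68% of the list against 10.5% of all genes) or for SCW11 and CHS3 (lower, 6.45% against 11%).

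The difference between the treatments was widest at PIR3, at 0.57 ± 0.16 with HenGC higher (95% interval 0.21 to 0.93, limma adjusted p = 0.281). PST1 differed by 0.36 ± 0.13 (0.06 to 0.65, adjusted p = 0.340) and YPS1 by 0.24 ± 0.12 (adjusted p = 0.470), with HenGC nearer to vehicle. In the other direction, HenGC was lower than SoyGC by 0.28 at SCW11 (95% interval -0.49 to -0.08, adjusted p = 0.299), by 0.24 at CHS3 (0.379), by 0.31 at CWP1 (0.453), by 0.28 at SCW10 (0.445) and by 0.22 at CRH1 (0.491). The PIR3 difference was 0.35 on the first scan day and 1.00 on the second, and that of SCW11 was -0.34 and -0.16. HenGC 1 and 2 were on slide 2 and SoyGC 1 and 2 on slide 1, so slide and treatment cannot be told apart on the first day. The second day compares 1 array with 1, on slide 3.

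For 4 genes that were low under both treatments, the 95% interval of the difference between treatments included 0. It ran from -0.27 to 0.14 for FKS1, from -0.16 to 0.29 for GSC2 and from -0.24 to 0.26 for CHS1, and for CIS3 from -0.25 to 0.24. The intervals do not show that HenGC and SoyGC act alike at these genes.

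**Figure D4:**
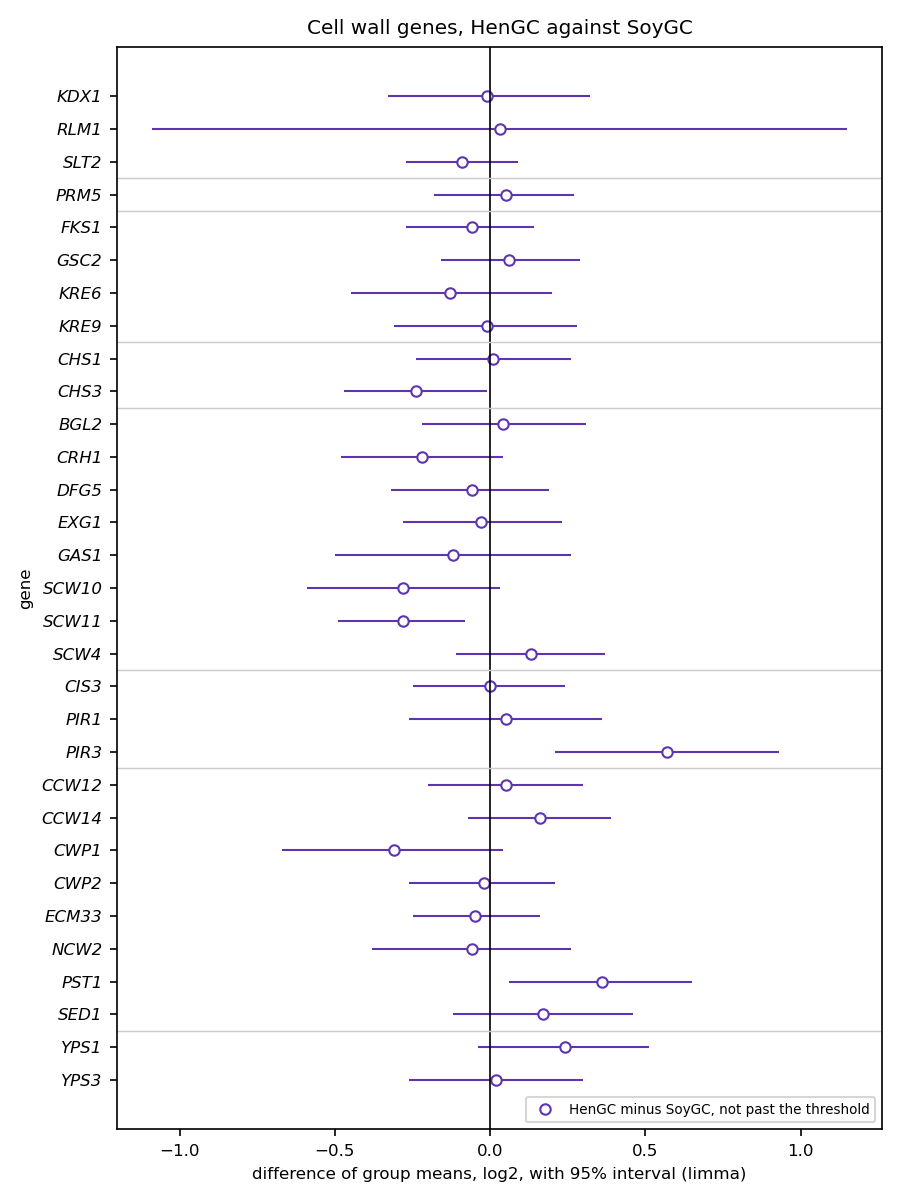
HenGC minus SoyGC for each of the 31 wall genes, as the log2 difference of group means with its 95% interval from limma (3 against 3 arrays). Points to the right are higher under HenGC. No gene passed the adjusted threshold, and the intervals of PIR3 and PST1 on the right and of SCW11 and CHS3 on the left leave out 0.

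Wall genes outside the list were read from 3 further lists. The signalling list held 26 other genes of the pathway, from its sensors to the transcription factor subunits SWI4 and SWI6 and to phosphatases and inhibitors that act on it. Of these 0 passed under HenGC, where WSC2, a sensor (-0.40 ± 0.10, limma adjusted p = 0.0935), LRG1 (-0.49 ± 0.14, 0.113) and BAG7 (-0.37 ± 0.12, 0.151), both inhibitors of Rho1 that make it hydrolyse GTP, had the smallest p. Under SoyGC, BAG7 alone fell, which is 3.85% of the list against 5.93% of all genes. It was at -3.22, -3.20 and -2.92 in vehicle, -3.44, -3.63 and -3.40 under HenGC, and -3.98, -4.11 and -4.24 under SoyGC. Its 3 groups did not overlap, and SoyGC lowered it by 0.99 ± 0.12 (adjusted p = 0.0114). With SoyGC 3 left out 0 genes of the signalling list fell, and with any 1 of the 8 other arrays left out 1 did. The list's median was -0.136 for HenGC and -0.131 for SoyGC.

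A list of 42 other wall proteins and enzymes had a median of -0.242 under HenGC and -0.173 under SoyGC. It includes NFG1, which passed the filter on dim probes through vehicle alone. None passed under HenGC, with GAS3, EXG2 and GAS5 at the smallest p (-0.52 ± 0.11, -0.44 ± 0.10 and -0.47 ± 0.11, limma adjusted p = 0.0640, 0.0692 and 0.0785). Under SoyGC 6 fell (14.3% of the list, against 5.93% of all genes) and none rose (3.32% of all genes): FLO11, the adhesin of surface-bound growth (-0.76 ± 0.14, adjusted p = 0.0270), KRE1, which acts in glucan assembly (-0.52 ± 0.10, 0.0273), TIP1, a cold-shock mannoprotein (-0.80 ± 0.16, 0.0296), GAS3, a relative of GAS1 (-0.47 ± 0.11, 0.0381), SKN1, a relative of KRE6 (-0.57 ± 0.14, 0.0422), and SIM1, a wall protein of the SUN family (-0.38 ± 0.10, 0.0455). With vehicle 1 left out 4 genes of this list fell, with vehicle 3 or any 1 HenGC array left out 3, and with vehicle 2 or any 1 SoyGC array left out 0.

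Of 21 mannosylation genes, whose products put the sugar chains on mannoproteins, 0 passed under HenGC and 2 fell under SoyGC (9.52%, against 5.93% of all genes), both protein O-mannosyltransferases: PMT6 (-0.63 ± 0.12, limma adjusted p = 0.0285) and PMT3 (-0.81 ± 0.17, 0.0306). Under HenGC PMT6, PMT4 and PMT3 were at -0.58 ± 0.12, -0.44 ± 0.09 and -0.55 ± 0.17 (adjusted p = 0.0597, 0.0640 and 0.132). The SoyGC count was 2 with vehicle 1 or any 1 HenGC array left out, 1 with vehicle 3 and 0 with vehicle 2 or any 1 SoyGC array. The list's median was -0.186 for HenGC and 0.006 for SoyGC. Between HenGC and SoyGC, 0 genes of the 3 lists passed, and their medians ran from -0.126 to -0.002.

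**Figure D5:**
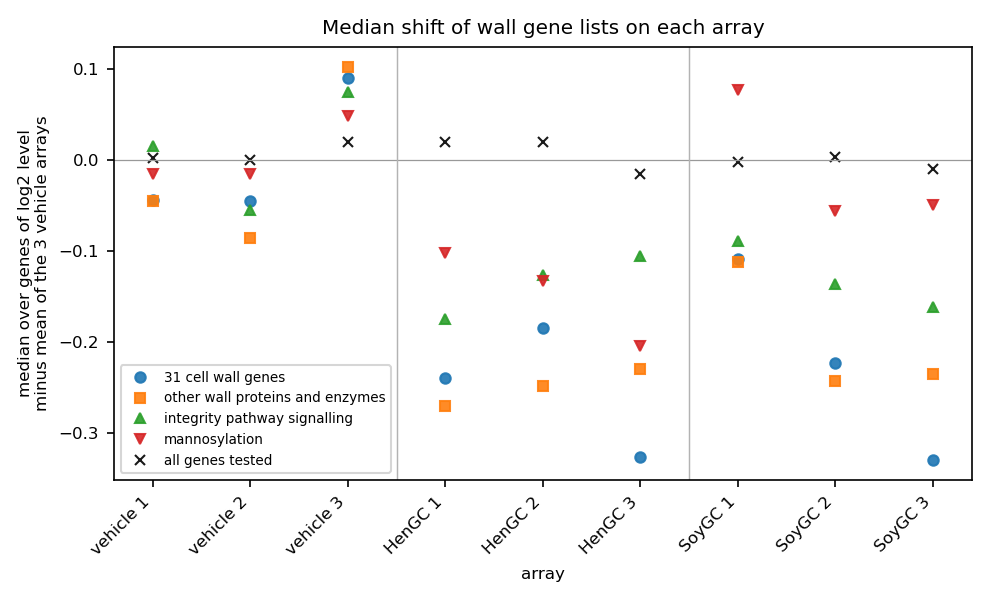
Median over the genes of a list of the log2 level minus the mean of the 3 vehicle arrays, for each array. The crosses, over all genes tested, stay within 0.02 of 0, while the 31 wall genes lie between -0.330 and -0.109 on the treated arrays and at 0.091 on vehicle 3.

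Other lists moved across the same arrays. Of 20 ribosome biogenesis genes, 12 rose under SoyGC (3.32% of all genes rose) and 0 passed under HenGC (0.911%), with medians of 0.905 and 0.617 above the vehicle mean, and on single arrays the list's median ran from -0.566 on vehicle 3 to 0.319 on vehicle 1, from 0.465 to 0.811 under HenGC and from 0.806 to 0.915 under SoyGC. Of 10 genes that mark stationary cells, HSP30, HSP26 and HSP12 rose under HenGC (0.58 ± 0.09, 0.65 ± 0.12 and 1.60 ± 0.30, limma adjusted p = 0.0258, 0.0425 and 0.0478) and HSP26 under SoyGC (0.55 ± 0.12, 0.0331). The list did not move 1 way: 8 of the 10 differences were positive under HenGC and 5 under SoyGC, with medians of 0.279 and -0.038, and SNZ1 and SNO1 were at -0.28 ± 0.16 and -0.36 ± 0.17 under HenGC and -0.43 ± 0.16 and -0.52 ± 0.17 under SoyGC without passing. Of 19 haploid-specific genes tested, 2 fell under HenGC (10.5%, against 0.275% of all genes) and 2 under SoyGC (10.5%, against 5.93%). MF(ALPHA)2 and MF(ALPHA)1 fell under HenGC, by 1.15 ± 0.12 and 0.70 ± 0.12 (limma adjusted p = 0.00721 and 0.0401). Their mean levels were -5.12 and -5.74 in vehicle, and -6.27 and -6.44 under HenGC. SAG1, a mating agglutinin of the wall surface, fell under SoyGC by 0.78 ± 0.16 (0.0306). MFA2 also passed under SoyGC (0.0427) and is in that count. It was well above background on 3 of 3 vehicle arrays and on 2 of 3 arrays of each treatment, so its difference is not given. The haploid-specific list had 16 of 19 differences negative under HenGC, against 2908 of 5820 over all genes, and 17 under SoyGC, against 2886. Its medians were -0.325 and -0.174. Of its genes, 52.6% were lower on all 3 HenGC arrays than on any vehicle array, against 17.8% of all genes. On all 3 SoyGC arrays 36.8% were, against 20.5%. MFA2, AGA2 and FAR1 passed the filter on dim probes through vehicle alone, where they were highest. The filter thus favoured negative differences for them, and they are part of these counts, medians and shares. Leaving out 1 array gave 0 (vehicle 2 or SoyGC 3) to 13 (vehicle 1) ribosome biogenesis genes higher under SoyGC, 0 to 2 stationary genes higher under HenGC and 0 or 1 under SoyGC, and 0 to 2 haploid-specific genes lower under either, with 0 of each for vehicle 2. The part of these lists in the wall gene differences was not tested. Slide and group cannot be told apart for HenGC 1 and 2 against vehicle 1 and 2, or against SoyGC 1 and 2. Within slide 1, SoyGC 1 and 2 against vehicle 1 and 2 gave a median difference of -0.208 over the wall genes. Slide 3, where all groups meet, has 1 array of each, and its vehicle array is vehicle 3, which stood apart from the other vehicle arrays. There the wall genes' median difference was -0.402 for HenGC and -0.422 for SoyGC.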

How the data were processed

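Total RNA of 9 samples was labelled with Cy3 and hybridised to 1-colour Agilent arrays, per the labels' protocols. The deposited scanner files hold a linear processed intensity per spot, background-subtracted and detrended by Agilent Feature Extraction 11.0.1.1, per the file headers. R 3.0.2 is also named in the submitters' processing notes, without its role. A deposited table of intensity per probe equalled the mean of the 7 spots for 100% of values (relative tolerance 1e-06). Column medians were 1772 to 2634, so it was unscaled and used as an alternative.

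Here log2 of the processed intensity was taken, each array's 75th percentile (5273 to 7803 on the linear scale) subtracted, and the spots of a probe averaged without outlier spots (0.527% to 1.17%) and control spots. A probe well above background, in over 50% of its spots, on all 3 arrays of a group was tested, with the brightest probe per gene. Names came from systematic names matched through a RefSeq gene table of assembly R64, and 258 of 5820 genes tested were not in it. limma 3.58.1 in R 4.3.3 fitted the 3 group means to 9 arrays, and p-values were adjusted over 5820 genes with a threshold of 0.05. The script was tested on simulated data. Numbers of arrays limit the precision.

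The members and lists were chosen with earlier results of these data known. Values on every array were given for members past the threshold and for the 8 with the largest moderated statistic in each comparison, and other lists were named by smallest p. Correlations between the deviations of same-numbered arrays ran from -0.65 to 0.56 and were not all over 0.1, so numbers were not used as pairs. Promoter motifs and sequences were not analysed here, and 1 further gene list is not reported here. The planned normexp alternative used median in place of mean signals.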

Additional observations from a re-analysis of the deposited data

How the results depend on the processing

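The alternatives comprised 25 settings, and all 150 alternative values of called wall genes kept their direction, while 106 of 2113 values of genes not called changed sign. Many of the 150 values could not change. The filters on dim probes, the mean over probes, the blocks and the fit to only the groups compared left the SoyGC differences as they were. So did leaving out a HenGC array, and PST1 stayed at -0.97 in each. The count of kept signs is therefore no measure of how firm the calls are. Leaving out 1 array left 0 to 3 wall genes called under SoyGC of 2 (without SoyGC 3) to 387 (without vehicle 1) genes in all, and 0 under HenGC of 3 (without vehicle 2) to 50 (without vehicle 3) in all. The median over the wall genes ran from -0.314 to -0.180 for SoyGC and from -0.293 to -0.210 for HenGC. Over all tested settings the adjusted p ranged from 0.0013 to 0.164 for PST1, 0.00134 to 0.186 for YPS1, 0.00524 to 0.297 for GSC2, 0.0051 to 0.322 for CHS1, 0.0207 to 0.37 for FKS1 and 0.0415 to 0.298 for PIR3.

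Fitting only the groups compared, with fewer arrays behind the spread, gave 1 wall gene and 50 genes in all for SoyGC and 6 in all for HenGC. Within the first scan day SoyGC gave 1 wall gene and 35 in all, and within slide 1 it gave 0 and 35. With slide as a fixed block it gave 2 and 187, and HenGC 0 in all; with scan day as a block HenGC gave 1 wall gene, PST1, and 125 in all. Within slide 1 the SoyGC median over the wall genes was -0.208. On the second scan day, with no test and vehicle 3 as the only vehicle array, the medians were -0.402 for HenGC and -0.422 for SoyGC. Slide as a random block had a correlation of 0.08. It and scan day as a block each called 7 wall genes under SoyGC, the 6 and CIS3.

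The deposited table without scaling gave 0 wall genes and 8 in all for SoyGC and 3 in all for HenGC, with medians over the wall genes of -0.424 for HenGC and -0.095 for HenGC minus SoyGC. Quantile normalization gave 37 genes in all for HenGC (31 higher and 6 lower, against 53 and 16) with a median of -0.202, and for SoyGC 191 higher and 204 lower against 193 and 345. Under SoyGC the wall gene calls were 4 of the 6 with quantile normalization and 4 without the filter on dim probes, where PIR3 (adjusted p = 0.0561 and 0.0534) and FKS1 (0.08 and 0.0527) were lost. Without the filter on dim probes, 45 genes passed for HenGC and 1 for HenGC minus SoyGC. Array weights, in a fit that stopped before convergence and gave vehicle 2 a weight of 4.16 and vehicle 3 one of 0.147, called 11 wall genes in each treatment, 875 and 1243 in all for HenGC and SoyGC, and 21 for HenGC minus SoyGC. The replicate block, whose numbers do not pair the samples, called 2 wall genes under HenGC (PST1 and CWP1) and 5 under SoyGC. The cause of these moves was not tested.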
